A study of Mus musculus with 12 samples.

Results

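Mouse CD4 T helper 1 (Th1) cells that lack the receptor NKG2D were compared with wild-type Th1 cells sorted for NKG2D on their surface. The comparison takes in the 6 Th1 libraries, 3 of each kind, among the 12 libraries of the study, chosen by their sample titles, and every gene with enough counts to test. The other 6 libraries come from T helper 17 (Th17) cultures of the same genotypes, and their sample titles read pTh17+IL12. These libraries enter only where the genotype difference is set beside that in Th1. All cells carried the OT-II transgene, a T cell receptor specific for an ovalbumin peptide, on a C57BL/6 background. Naive CD4 T cells of OT-II mice and of OT-II x NKG2D-/- mice, taken from spleen and lymph nodes, were cultured together. They received that peptide, an antibody to CD28 and antigen-presenting cells. The Th1 condition was IL-2, IL-12 and an antibody that blocks IL-4. Cells were polarized from day 0 and again from day 5, and those taken on day 8 were separated by their Thy1 allele. Wild-type cells (WT) were Thy1.2+ and NKG2D+, and cells without NKG2D (KO) were Thy1.1+.

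These groups differ in more than the deletion. The WT cells were selected for NKG2D at the surface, the KO cells could not be, and the Thy1 allele marks the genotype, so the parts of genotype, gate and congenic background cannot be told apart. The labels do not say whether the 3 libraries of a group came from separate mice or cultures. Each p-value therefore measures the spread between libraries, which may be technical. The fit estimates that spread over all 12 libraries, those of Th17 included. The cells are also bulk populations, in which fewer cells of a type and less RNA per cell cannot be told apart.

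NKG2D, encoded by Klrk1, is an activating receptor best known from natural killer and CD8 T cells, where it recognises stress-induced ligands related to MHC class I. In mice it signals through the adaptor DAP10 (Hcst), which recruits phosphoinositide 3-kinase and Grb2, and in some cells through DAP12 (Tyrobp). Th1 cells are driven by the transcription factors T-bet and STAT4, make interferon-gamma, and respond to it by switching on guanylate-binding proteins, immunity-related GTPases and antigen presentation genes.

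The 6 Th1 libraries held 9108203 to 12688637 counts and a count in 16555 to 17239 genes. Mitochondrial genes took 14.24% to 15.09% of the counts. Of 12189 genes tested, 206 were higher and 356 lower in KO at an adjusted p under 0.05 in edgeR's quasi-likelihood test, or 1.69% and 2.92% of the genes tested (4.61% in all). Both counts moved with single libraries. Leaving out a Th1 library gave 260 to 394 calls, with the fewest without WT library 2 (260), KO library 2 (293) and KO library 1 (343). Without WT library 1 the higher genes numbered 129, and without KO library 3 the lower genes numbered 226. In all 6 such fits 64 higher and 129 lower genes kept their call, and the genes described below are mostly of that kind. Most differences were small. Among called genes the median log2 fold change (KO over WT) was 0.55 for higher and -0.40 for lower genes, and 55 higher and 33 lower genes moved past 2-fold. The median over all genes tested was -0.002. Levels below are CPM (each gene's count scaled to the library's total) after TMM scaling, in libraries 1, 2 and 3 of a group. Fold changes are on the log2 scale, and ± after one gives its standard error (SE). That SE is the size of the log2 fold change divided by the square root of the test's F statistic. Where a group has few counts it can be smaller than counting error alone. The CPM ranges of WT and KO did not overlap for 24.5% of all genes tested, so that a lack of overlap is common here and is given as a description. Among called genes the ranges did not overlap for 353 of 356 lower and 204 of 206 higher. The rule that named the highest and lowest genes also required it, so a lack of overlap adds no support to a call. Counts of called list members below are to be read beside 2.92% lower and 1.69% higher over all genes.

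**Figure D1:**
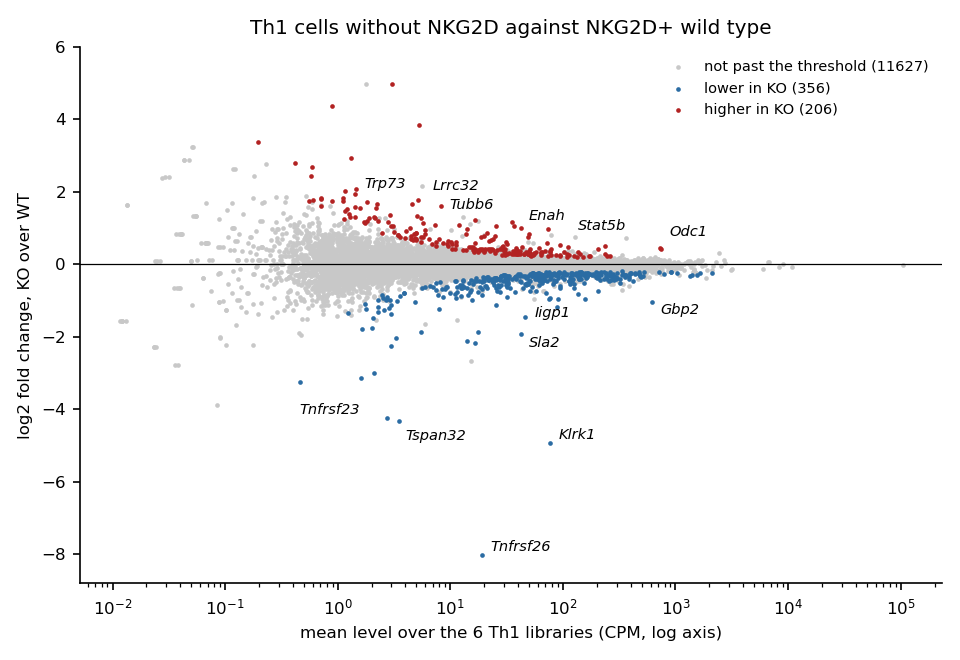
Each point is 1 of 12189 genes, with its mean level over the 6 Th1 libraries in CPM (x axis, log scale) and its log2 fold change in KO over WT (y axis). Blue points are the 356 genes lower in KO and red points the 206 higher, and Klrk1 and Tnfrsf26 stand below the other abundant genes.

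The sorted cells had the markers of CD4 T cells, which summed to 3070 to 3200 CPM in WT and 2860 to 2970 CPM in KO. B cell markers summed to 0.486 to 0.784 CPM in WT against 0.556 to 1.37 CPM in KO. The 11 markers of natural killer and innate lymphoid cells summed to 1040 to 1260 CPM in WT against 969 to 1320 CPM in KO, most of it from Il7r, Id2 and Gzma, which T cells also express. In that list Ncr1, the defining receptor of natural killer cells, had 0 counts in every Th1 library. Of the 2 CD8 T cell markers Cd8a had 0 or 1 counts in each library. Cd8b1 had 51, 42 and 41 counts in WT and 29, 30 and 26 in KO, with no overlap, and did not pass (-0.52 ± 0.24, adjusted p = 0.283). Myeloid and dendritic cell markers, which antigen-presenting cells would bring, summed to 22.2 to 25.5 CPM in WT against 22.9 to 26.4 CPM in KO over the 23 genes listed. Csf1r, C1qb and Clec9a were at 0 counts in all 6 libraries, and none of the 9 myeloid markers tested passed the test (1 at an unadjusted p under 0.05, 0 with DESeq2, 1 with limma-voom). Of 10 CD4 T cell markers 2 were lower in KO, Cd28 and Cd247, and Thy1 was at -0.12 ± 0.12 (adjusted p = 0.716). Cd247 lost its call without WT library 2 (0.134), KO library 2 (0.162) and other Th1 libraries. Of the 5 natural killer and innate lymphoid markers tested, Kit and Il7r were lower, and Il7r lost its call without KO library 1 (0.067). The part of these markers and of Cd8b1 in the results below was not tested.

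Klrk1 itself followed the labels. It stood at 161, 158 and 128 CPM in WT and at 5.58, 5.63 and 3.31 CPM in KO. The KO level was 3.26% of the WT level, with 59, 81 and 41 counts left. The log2 fold change was -4.94 ± 0.16 (adjusted p = 1.19e-09). The adaptor gene Hcst was at 14.2, 14.7 and 13.9 CPM in WT against 13.1, 13.9 and 13.7 CPM in KO (log2 fold change -0.07 ± 0.10, adjusted p = 0.829). Tyrobp had 0 to 2 counts in each library, so that transcripts of DAP12 were close to nothing at this depth. Ulbp1, which encodes a ligand of NKG2D, did not pass either (-0.05 ± 0.11, adjusted p = 0.889). Of 23 genes for signalling downstream of NKG2D, 1 was lower and none higher, against 2.92% and 1.69% of all genes. That gene was Fyn, a Src-family kinase that also serves the T cell receptor. It was at 166, 150 and 155 CPM in WT against 116, 114 and 125 CPM in KO, ranges that do not overlap, and fell by 0.41 ± 0.07 on the log2 scale (adjusted p = 0.000232).

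Most of the interferon-induced GTPases tested were lower in KO Th1 cells. This family holds the guanylate-binding proteins (Gbp) and the immunity-related GTPases (Irg), which attack the vacuoles of intracellular pathogens. Of 14 members tested 9 were lower and none higher, the median log2 fold change was -0.38, and all 9 kept their call when any Th1 library was left out. The members called were Gbp2, Gbp2b, Gbp3, Gbp7, Gbp8, Gbp9, Iigp1, Irgm1 and Igtp. Several Gbp genes are close copies of each other, and how the authors' counting treated reads shared between copies is not given in the sources used here, so values of single Gbp members are uncertain to that degree.

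Gbp2 was the most abundant of them to fall past 2-fold. Its levels were 806, 903 and 792 CPM in WT against a mean of 407 ± 31.0 CPM (SD, n = 3) in KO. The KO mean was 48.9% of the WT mean, the groups were far apart, and the log2 fold change was -1.03 ± 0.07 (adjusted p = 6.02e-11). Iigp1, an Irg protein that loads onto the vacuoles of intracellular parasites, was at 61.3, 66.1 and 73.7 CPM in WT against 21.5, 26.1 and 25.8 CPM in KO. Every KO library lay under every WT library, and the log2 fold change was -1.45 ± 0.10 (adjusted p = 7.62e-09). Irgm1, a regulator of the other Irg proteins, went from 123, 130 and 138 CPM to 90.9, 99.9 and 92.9 CPM (-0.46 ± 0.07, adjusted p = 0.000125). Gbp7 and Igtp, both above 400 CPM in each library, showed smaller differences of -0.36 ± 0.06 (adjusted p = 0.000287) and -0.32 ± 0.06 (adjusted p = 0.00119). Gbp4, Gbp11, Irgm2, Tgtp1 and Tgtp2 did not pass, with log2 fold changes from -0.36 to 0.13.

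Promoters of 4 of these genes are shown because 9 of the 14 GTPase genes tested were lower. The 250 bases before the annotated start were searched for the GAS motif TTCNNNGAA (interferon-gamma-activated site) and for the ISRE (interferon-stimulated response element), on both strands. The windows are from RefSeq on build GRCm38.p6, 5′ to 3′ on the gene's strand, with motif letters in capitals. Overlapping matches of ISRE run together. Gbp2 is at chr3:142620413-142620662 (+ strand) with an ISRE 59 to 50 bases before the start. Gbp7 is at chr3:142530086-142530335 (+ strand) with 2 GAS and 1 ISRE matches. Igtp is at chr11:58199306-58199555 (+ strand) with 1 GAS and 1 ISRE match. Irgm1 is at chr11:48871421-48871670 (- strand) with 2 ISRE matches that overlap.
Gbp2: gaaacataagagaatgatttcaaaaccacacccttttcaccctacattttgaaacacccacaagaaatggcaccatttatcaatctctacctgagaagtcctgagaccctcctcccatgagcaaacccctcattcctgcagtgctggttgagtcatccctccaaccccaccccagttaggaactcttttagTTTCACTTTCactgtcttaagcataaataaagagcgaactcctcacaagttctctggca
Gbp7: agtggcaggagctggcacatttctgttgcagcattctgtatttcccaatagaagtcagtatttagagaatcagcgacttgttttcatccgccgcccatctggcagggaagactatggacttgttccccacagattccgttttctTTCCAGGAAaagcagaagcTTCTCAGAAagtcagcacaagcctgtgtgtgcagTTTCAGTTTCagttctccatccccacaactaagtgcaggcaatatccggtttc
Igtp: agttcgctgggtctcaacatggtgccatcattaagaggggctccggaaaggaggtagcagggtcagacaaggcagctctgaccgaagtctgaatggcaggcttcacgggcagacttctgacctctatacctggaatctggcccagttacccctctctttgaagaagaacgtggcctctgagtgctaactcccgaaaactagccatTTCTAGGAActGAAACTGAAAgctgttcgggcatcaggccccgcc
Irgm1: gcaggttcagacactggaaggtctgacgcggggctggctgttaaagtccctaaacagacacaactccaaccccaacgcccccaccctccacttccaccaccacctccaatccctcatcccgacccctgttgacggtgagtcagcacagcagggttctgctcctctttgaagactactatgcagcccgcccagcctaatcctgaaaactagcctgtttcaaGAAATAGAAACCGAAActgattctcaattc

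Each of the 9 GTPase genes with a promoter window held an ISRE, among them the 6 called genes with a window. A GAS was in 5 of the 9 and in 2 of the 6 called. Among antiviral genes described below, 11 of 26 tested and 2 of 6 called lower held an ISRE. For MHC class I genes these counts were 3 of 16 and 3 of 9, and for Ifi200 genes 8 of 10 and 3 of 3. Of the 267 genes called lower that had a window, 13.1% held an ISRE and 11.6% a GAS. Among the 160 genes called higher the shares were 1.9% and 6.9%, and among all 9040 tested genes with a window 3.4% and 7.4%. Over all 32851 windows of the RefSeq table the shares were 3.0% and 7.0%. A match describes letters in these windows and not a bound site.

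Other interferon-stimulated genes were lower as well, though fewer of them. Of 37 antiviral genes tested 10 were lower and none higher, with a median log2 fold change of -0.26, and 8 of the 10 kept their call without any Th1 library. Ifitm1, an interferon-induced gene outside that list, was higher in KO (0.46 ± 0.11, adjusted p = 0.0294). It lost its call without WT library 2 (0.126) and without other Th1 libraries. Zbp1, a sensor of nucleic acids that can trigger necroptosis, was at 63.7, 62.8 and 64.3 CPM in WT against 37.3, 35.6 and 41.3 CPM in KO. The 3 WT values are nearly equal and stand clear of KO, with a log2 fold change of -0.74 ± 0.07 (adjusted p = 1.03e-07). Usp18, which removes ISG15 from proteins and dampens the type I interferon receptor, was at 29.1, 21.9 and 31.7 CPM in WT against 7.84, 5.56 and 9.69 CPM in KO (-1.85 ± 0.20, adjusted p = 8.89e-05). It lies within 10 Mb of the deleted gene Klrk1, and the part of that position was not tested. Dtx3l and Parp9 encode partners in a complex for DNA repair and antiviral signalling and fell by 0.38 ± 0.06 and 0.35 ± 0.07 on the log2 scale (adjusted p = 0.00013 and 0.00129). These genes overlap on opposite strands, and the library kit does not mark strand, so reads from the shared stretch cannot be told apart. Other classical members did not pass: Isg15 was at -0.06, Oasl2 at -0.01 and Bst2 at 0.03 (adjusted p 0.948, 0.999 and 0.931). Ifit3 stood at -1.25 with an adjusted p of 0.0596.

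Among the Ifi200 genes, a family of DNA sensors with close copies on chromosome 1, 4 of 11 tested were lower and none higher (median -0.55). Ifi214 went from 44.3, 50.2 and 47.0 CPM in WT to 25.6, 28.8 and 29.6 CPM in KO, with no overlap (-0.75 ± 0.11, adjusted p = 0.000127). Ifi211 and Ifi214 kept their call without any Th1 library. Ifi204 lost its call without WT library 2 (adjusted p = 0.0531), in a fit of the 6 Th1 libraries alone (0.0629), without the 3 shallow Th17 libraries (0.0648) and with DESeq2 (0.128), and Ifi213 lost its call without any of 5 of the 6 Th1 libraries.

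Among interferon and JAK-STAT signalling genes Stat5b, a transducer of IL-2 signals, was at 86.9, 90.7 and 97.7 CPM in WT. In KO it rose to 118, 131 and 136 CPM, with all KO libraries higher (0.48 ± 0.07, adjusted p = 2.67e-05). In the whole list of 23 interferon and JAK-STAT genes 3 were lower, among them Stat4 and Irf9, and 2 higher (Stat5b and Ifngr2), with a median of -0.17. Of these 5 calls 2 held without any Th1 library, Stat5b and a lower gene. Stat4, the transducer of IL-12, lost its call without any of 5 of the Th1 libraries, and Irf9 lost its call without each of the 6. Ifngr2, a chain of the interferon-gamma receptor, was near the floor of detection with 5, 2 and 0 counts in WT and 7, 12 and 18 in KO, and it lost its call without KO library 3 (adjusted p = 0.0613). Irf1 was lower in the mean, at 416, 365 and 295 CPM against 295, 262 and 220 CPM, but the lowest WT and the highest KO library were level and the test was not passed (adjusted p = 0.192).

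MHC class I presentation was the other group in which most tested members fell. Of 19 genes 10 were lower and none higher (median -0.29), and 18 of the 19 had a fold change under 0. Without WT library 2 only 5 of the 19 were lower. H2-T23, the non-classical molecule Qa-1 that presents leader peptides to CD94/NKG2 receptors, went from 182, 189 and 177 CPM to 133, 130 and 122 CPM, with no overlap (-0.51 ± 0.06, adjusted p = 2.87e-06). H2-T22, a further non-classical molecule, was at -0.53 ± 0.07 (adjusted p = 2.73e-05). Nlrc5, the transactivator of class I genes, went from 386, 390 and 392 CPM to 312, 319 and 325 CPM (-0.29 ± 0.05, adjusted p = 0.00127). Psmb10, a catalytic subunit of the immunoproteasome, fell by 0.37 ± 0.07 on the log2 scale (adjusted p = 0.00126). B2m, the light chain of every class I molecule, fell from 1691, 1794 and 1668 CPM to 1389, 1468 and 1348 CPM (-0.29 ± 0.06, adjusted p = 0.00616), but its adjusted p was 0.057 without WT library 2. The classical heavy chains H2-K1 and H2-D1 did not pass, at -0.20 each (adjusted p = 0.131 and 0.0956).

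**Figure D2:**
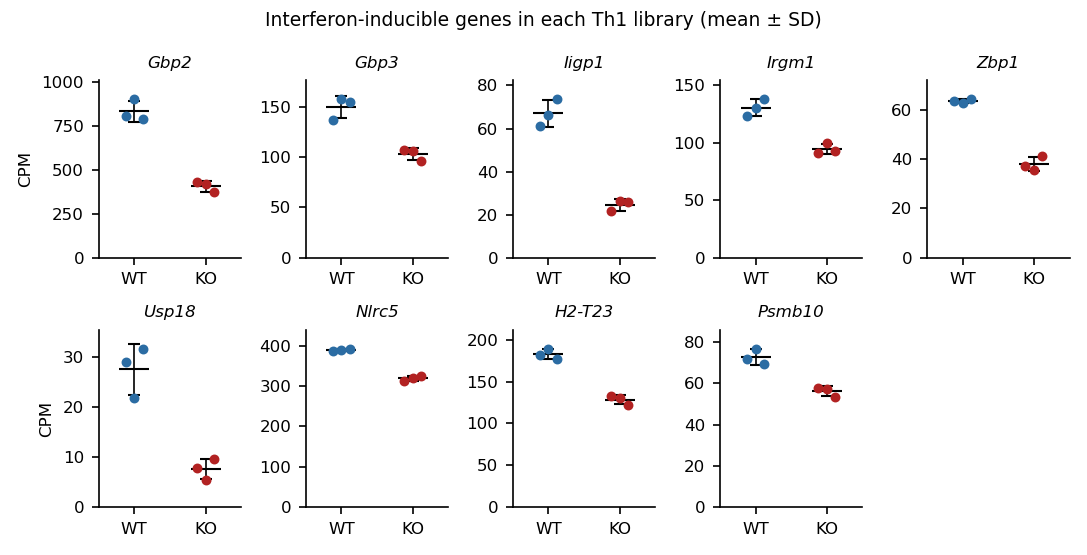
Each panel shows 1 gene, with its level in CPM (y axis, from 0) in the 3 WT and 3 KO Th1 libraries. Points are libraries, bars are the mean ± SD of 3, and in each of the 9 panels all KO libraries lie below all WT libraries.

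The defining genes of Th1 cells, Ifng and Tbx21, did not pass the test with the libraries taken as unpaired. Ifng was at 929, 657 and 658 CPM in WT against 784, 547 and 611 CPM in KO. The groups overlapped, and the log2 fold change of -0.21 ± 0.20 did not pass (adjusted p = 0.703). Tbx21, which encodes T-bet, was at 65.5, 72.0 and 84.4 CPM in WT against 50.8, 55.4 and 59.8 CPM in KO. The KO libraries were all lower, but the change of -0.42 ± 0.18 did not pass (adjusted p = 0.299), and it did pass in a fit of the 6 Th1 libraries alone (0.0281) and with limma-voom (0.0304). With libraries blocked by code, a pairing that the labels do not give, both genes passed edgeR's test. The adjusted p was then 0.00934 for Ifng and 2.85e-06 for Tbx21. Tnf and Il10 did not pass either, at 0.00 ± 0.18 and -0.07 ± 0.08 (adjusted p = 0.998 and 0.723). Of 15 cytokine genes tested, edgeR's quasi-likelihood test called none. At an unadjusted p under 0.05 there were 5, DESeq2 called 1 and limma-voom 3.

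In the wider Th1 list 6 of 22 genes were lower and none higher (median -0.20), and Hlx kept its call without any Th1 library. Without KO library 2 the list had 2 calls. Hlx encodes a homeobox factor that works with T-bet. It was at 29.2, 33.1 and 37.1 CPM in WT against 19.8, 22.9 and 21.7 CPM in KO, all KO libraries lower (-0.62 ± 0.09, adjusted p = 0.000101). The chains of the IL-18 receptor, Il18r1 and Il18rap, were lower by 0.37 ± 0.08 and 0.44 ± 0.10 on the log2 scale (adjusted p = 0.0101 and 0.0202). Both lost the call without KO library 2 (0.0602 and 0.09), and Il18rap also without each of 4 other Th1 libraries. Il12rb2 was at -0.19 ± 0.06 and did not pass (adjusted p = 0.0757). Cytotoxic granule genes changed in 1 of 19 cases, the vesicle fusion gene Stx11, which lost its call without KO library 2 (adjusted p = 0.193) and without each of 3 other Th1 libraries. Gzmb was at 1717, 2075 and 2705 CPM in WT against 2432, 2203 and 3412 CPM in KO, with overlap (0.31 ± 0.24, adjusted p = 0.609).

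Among genes that restrain T cell receptor signalling, Sla2 had a large drop. Sla2, an adaptor that brings the ubiquitin ligase Cbl to the T cell receptor, was at 64.3, 64.1 and 71.2 CPM in WT against 17.2, 15.4 and 20.3 CPM in KO. The KO mean was 26.4% of WT, with no overlap (-1.92 ± 0.10, adjusted p = 3.55e-13). Its reads can mix with those of Rab5if, which overlaps it on the other strand and was at -0.24 (adjusted p = 0.0397). Ubash3b, a phosphatase that turns off Zap70 and Syk kinases, fell from 24.0, 20.4 and 25.7 CPM to 14.5, 12.3 and 17.2 CPM (-0.68 ± 0.13, adjusted p = 0.00298). It lies within 10 Mb of Thy1, which carries the congenic marker, and the part of that position was not tested. In all, 3 of 31 genes that restrain the receptor were lower and none higher (median -0.14), against 2.92% and 1.69% of all genes. Only 2 of the 3, Sla2 and Ubash3b, kept their call without any Th1 library, and DESeq2 called 2 of the list. Among 24 genes of the receptor complex and its kinases 7 were lower and none higher (median -0.08), but without WT library 2 or KO library 2 there were 2. Fyn, a kinase of the receptor, kept its call without any Th1 library. Of 22 NF-kB genes 5 were lower and none higher (median -0.11), and without KO library 3 there was 1. Tnfaip3, which encodes the inhibitor A20, went from 90.5, 81.2 and 79.3 CPM to 64.3, 56.5 and 61.9 CPM (-0.46 ± 0.07, adjusted p = 0.000145).

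Among 25 costimulatory and inhibitory receptors and ligands 3 were lower and 1 higher (median -0.07), against 2.92% and 1.69% of all genes. Cd274, the checkpoint ligand PD-L1, was at 57.0, 53.7 and 51.8 CPM in WT against 33.7, 35.0 and 35.8 CPM in KO, with no overlap (-0.64 ± 0.08, adjusted p = 1.66e-05). Cd28, the costimulatory receptor that the culture antibody engaged, fell by 0.31 ± 0.06 on the log2 scale (adjusted p = 0.00313). The checkpoint receptor Lag3 was lower (-0.44 ± 0.13, adjusted p = 0.048) but lost the call in 10 of the alternatives. Cd200r1, an inhibitory receptor, rose from 1.81, 2.19 and 2.57 CPM to 5.48, 6.11 and 9.21 CPM (1.66 ± 0.24, adjusted p = 6.13e-05). Entpd1, the ectonucleotidase CD39, was at 87.7, 88.2 and 89.8 CPM in WT against 50.2, 46.5 and 58.1 CPM in KO. The WT libraries were tightly grouped and all higher (-0.78 ± 0.08, adjusted p = 1.84e-07). Among naive and memory genes 5 of 17 were lower and 1 higher (median -0.07), against the same 2.92% and 1.69%. Foxp1 and Foxo1, which hold T cells in a quiescent state, fell by 0.55 ± 0.08 and 0.43 ± 0.07 on the log2 scale (adjusted p = 0.000101 and 0.000334), and the activation marker Cd44 rose by 0.35 ± 0.07 (adjusted p = 0.00147).

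The gene with the largest fall was Tnfrsf26, a member of the TNF receptor superfamily. It was at 36.4, 38.6 and 39.1 CPM in WT and had 1, 2 and 2 counts in KO. Summed over the libraries, the level per count sequenced was 278-fold lower in KO (95% exact interval 119 to 856, counting error only), with an adjusted p of 5.66e-20. Tnfrsf23, a decoy receptor for TRAIL next to it, had 54, 67 and 94 counts in WT and 2, 4 and 4 in KO (19.2-fold lower, 10.2 to 40.5, adjusted p = 9.05e-09). Tspan32, a tetraspanin of blood cells nearby, had 97, 87 and 88 counts in WT and 3, 6 and 3 in KO (20.2-fold lower, 11.4 to 39.6, adjusted p = 1.05e-11). In all 3 genes every KO library was close to the floor. Tnfrsf22, the decoy receptor between them, was higher in KO at 5.95, 7.37 and 9.45 CPM against 4.79, 3.60 and 4.44 CPM (0.83 ± 0.19, adjusted p = 0.00959), and lost the call without WT library 2 (0.0839) or KO library 3 (0.0932) and with DESeq2 (0.0755). On build GRCm38 these genes lie together on chromosome 7, Tspan32 at 143005046 to 143019644, Tnfrsf26 at 143607659 to 143628722, Tnfrsf22 at 143634806 to 143649661 and Tnfrsf23 at 143665809 to 143685872. Of 70 genes tested between 140 and 150 Mb of chromosome 7, 6 were lower and 9 higher, or 21.4% against 4.61% of all genes. Among them were Echs1, an enzyme of mitochondrial fatty acid oxidation (1.07 ± 0.10, adjusted p = 1.03e-07), Mtg1 (0.99 ± 0.13, adjusted p = 2.2e-05) and Dhcr7, the last enzyme of cholesterol synthesis (0.66 ± 0.11, adjusted p = 0.000317). The share was higher in 1 other of the 213 bins of 10 Mb with at least 20 genes, chromosome 18 from 60 to 70 Mb, with 12 of 51 genes (23.5%), Iigp1 and Tubb6 among them. Near the deleted gene and leaving it out, 3 of 30 genes within 2 Mb of Klrk1 were called (Clec2d, Klrc2 and Klra3, all lower). Within 10 Mb 8 of 120 were called (6.67%), Usp18 and Lag3 among them. Clec2d, Klrc2 and Klra3 each lost the call without KO library 2 (adjusted p = 0.106, 0.124 and 0.0766) and without at least 1 other Th1 library. Near Thy1, which carries the congenic marker, 7 of 109 genes within 10 Mb were called (6.42%), Ubash3b among them. What lies behind the bins was not tested.

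Other genes of large difference had varied roles. Serpinb5, a member of the serpin family, went from 24.4, 37.6 and 19.3 CPM in WT to 6.52, 6.95 and 4.52 CPM in KO (-2.16 ± 0.25, adjusted p = 0.00033). Ms4a4c, a membrane protein of the MS4A family, went from 7.40, 9.48 and 9.09 CPM to 2.55, 2.71 and 1.78 CPM (-1.87 ± 0.24, adjusted p = 2.73e-05). Nod1, a cytosolic sensor of bacterial peptidoglycan, went from 10.2, 11.6 and 11.5 CPM to 3.78, 4.17 and 6.22 CPM (-1.23 ± 0.19, adjusted p = 0.000143). In these 3 genes all WT libraries were above all KO libraries. Cmss1, at -2.04 ± 0.27 (adjusted p = 2.28e-05), had 6 to 21 counts in KO and overlaps Filip1l on the other strand, which was at 0.22 (adjusted p = 0.455).

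The higher genes were led by ones of low to moderate level. Trp73, the p53 family member p73, was at 2.68, 1.96 and 2.43 CPM in WT against 7.75, 9.73 and 6.70 CPM in KO, with no overlap (1.77 ± 0.20, adjusted p = 3.23e-06). Lrrc32, the protein GARP that holds latent TGF-beta on the cell surface, rose from 5.37, 3.53 and 3.33 CPM to 13.7, 11.5 and 12.1 CPM (1.60 ± 0.19, adjusted p = 1.75e-05). Tubb6, a beta-tubulin, rose from 22.8, 19.4 and 22.4 CPM to 57.7, 49.5 and 39.2 CPM (1.18 ± 0.12, adjusted p = 3.56e-05), as the 1 called gene among 14 tubulins. Tmem176a and Tmem176b, neighbouring membrane proteins linked to Th17 cells, stood at 1.09 ± 0.15 and 1.22 ± 0.14 (adjusted p = 2.28e-05 and 5.82e-06). They overlap on opposite strands, so their reads can mix. Enah, a regulator of actin filaments, rose from 29.5, 28.5 and 26.2 CPM to 51.6, 58.0 and 59.6 CPM (1.01 ± 0.09, adjusted p = 1.15e-08). Rxra, the retinoid X receptor, rose from 15.2, 17.4 and 16.7 CPM to 26.5, 36.4 and 39.6 CPM (1.07 ± 0.13, adjusted p = 1.4e-05). Among abundant genes Odc1, the rate-limiting enzyme of polyamine synthesis, rose from 627, 630 and 658 CPM to 805, 870 and 903 CPM (0.43 ± 0.08, adjusted p = 0.00308). Ppp1r16b, a regulatory subunit of protein phosphatase 1, rose by 0.52 ± 0.07 on the log2 scale (adjusted p = 6.07e-05).

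**Figure D3:**
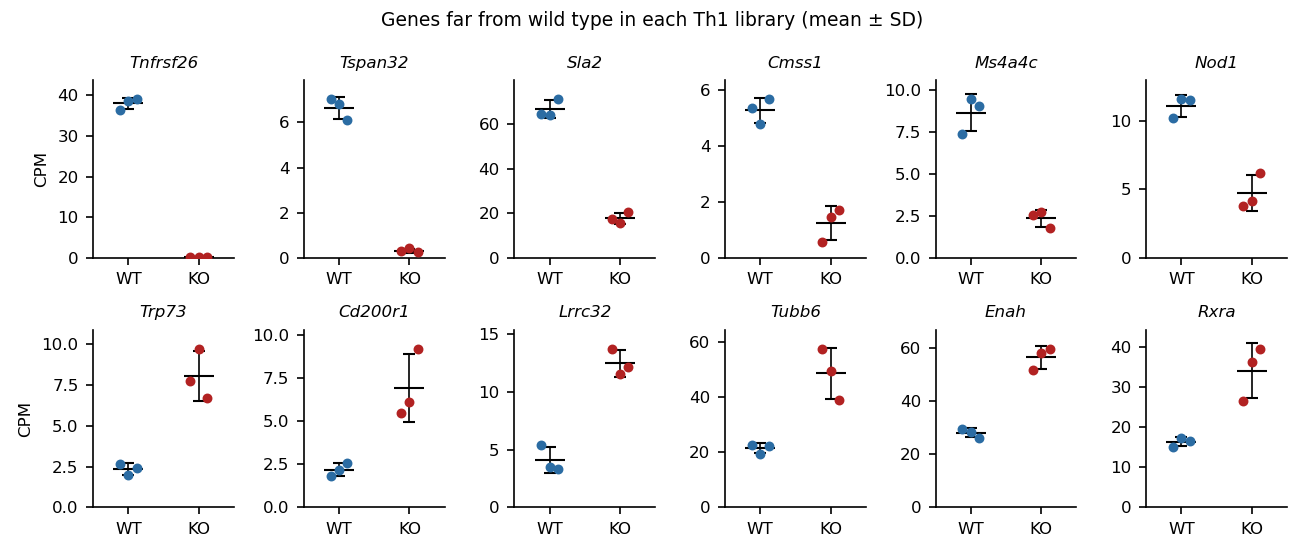
Each panel shows 1 gene, with its level in CPM (y axis, from 0) in the 3 WT and 3 KO Th1 libraries. Points are libraries and bars the mean ± SD of 3. The 6 genes of the upper row are lower in every KO library and the 6 of the lower row are higher in every KO library.

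Genes of mitosis and of DNA replication are given apart. All 35 mitosis genes tested had a fold change under 0, from -0.39 to -0.08 with a median of -0.20, and 13 were lower. That count was 4 without WT library 2, 9 with DESeq2, 22 with limma-voom. Cenpf, a kinetochore protein, was at 261, 275 and 262 CPM in WT against 195, 209 and 203 CPM in KO, all KO libraries lower (-0.39 ± 0.07, adjusted p = 0.00126). Cenpe, a kinetochore motor, and Aspm, a spindle pole protein, were at -0.30 ± 0.06 and -0.28 ± 0.06 (adjusted p = 0.00126 and 0.0047). These 3 kept their call without any Th1 library. Mki67, the proliferation marker, did not pass at -0.14 ± 0.08 (adjusted p = 0.37). DNA replication genes lay close to 0. Of 31 tested none was called by edgeR's quasi-likelihood test, DESeq2 or limma-voom, none had an unadjusted p under 0.05, and their fold changes ran from -0.12 to 0.10. The cell cycle inhibitor Cdkn1a, a p53 target, rose from 36.1, 30.1 and 31.3 CPM to 48.1, 43.8 and 41.1 CPM (0.45 ± 0.09, adjusted p = 0.00206).

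Groups of metabolism and stress had few calls or none. EdgeR's quasi-likelihood test called 0 of 21 unfolded protein response genes (3 at an unadjusted p under 0.05, 0 with DESeq2, 2 with limma-voom) and 0 of 23 ATF4 response genes (5, 0 and 2). It called 1 of 27 glycolysis and hypoxia genes, Hif1a, which lost its call without any 1 Th1 library, and 1 of 26 genes of cholesterol and fatty acid synthesis, Dhcr7. None of 32 cytosolic ribosomal protein genes was called by any of the 3 tools, none had an unadjusted p under 0.05, and their median was 0.06. Of 7 chemokine genes none was called by any of the 3 tools, with 1 at an unadjusted p under 0.05. Against 1.69% higher and 2.92% lower over all genes, the TGF-beta and activin list had 2 higher and 0 lower of 24. They were Lrrc32 and Inhba, the activin A subunit, the latter on 1 to 2 counts in WT and 7 to 13 in KO (7.86-fold higher, exact 95% interval 2.75 to 30.8, counting error only, adjusted p = 0.00342). Klr receptors, the gene family around Klrk1, had 3 of 11 lower, and 0 without KO library 2 or with DESeq2.

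**Figure D4:**
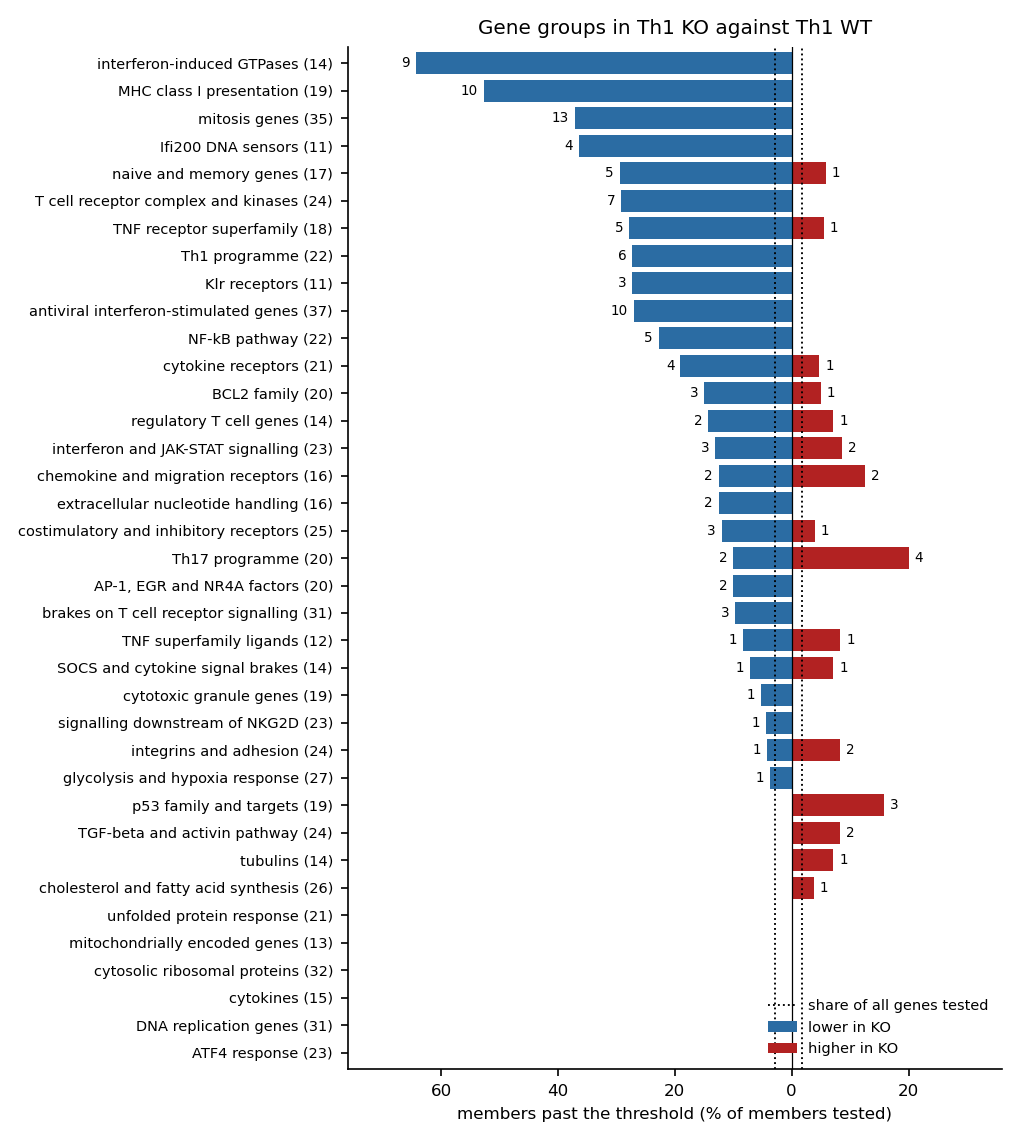
Bars give the share of tested members of each gene list that were lower (blue, to the left) or higher (red, to the right) in KO, in percent of members tested, with the count at the bar's end and the number tested in brackets. Dotted lines mark the shares over all genes, 2.92% lower and 1.69% higher, and the interferon-induced GTPases reach the furthest left with 9 of 14.

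The genotype difference was also measured in the Th17 cultures, whose titles name IL-12 as well. They have no library in common with Th1, but are in the same fit with a shared estimate of the spread. There 711 genes were called (5.83% of those tested, with 4.02% lower and 1.81% higher), on 3 deep and 3 shallow libraries. Of the 356 genes lower in Th1, 150 were also lower in Th17, which is 42.1% of the Th1 list and 30.6% of the 490 genes of the Th17 list. Of the 206 higher genes 52 were also higher in Th17 (25.2% of the Th1 list, 23.5% of the 221 in Th17), and 2 were called in the opposite direction. Sla2, Usp18, Cmss1, Echs1, Ppp1r16b, Odc1 and Stat5b were called in the same direction in both cultures. Sla2 was at -1.92 ± 0.10 in Th1 and -2.03 in Th17, and Stat5b at 0.48 and 0.50. The test of the difference did not pass for any of these 7, which does not show that they act alike. WT cells were selected for NKG2D in both cultures, so calls made in both are not independent of that selection.

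The difference between the genotype effects passed for 72 genes (0.591% of those tested), 29 of them called in Th1. It passed for Gbp2, Iigp1, Irgm1 and Cd274, each of which fell more in Th1. Irgm1 was at -0.46 ± 0.07 in Th1 and 0.03 in Th17 (adjusted p of the difference 0.0251). Gbp2 was at -1.03 ± 0.07 and -0.36 (0.000259), and Cd274 at -0.64 ± 0.08 and 0.11 (0.00262). The whole GTPase list had 4 of 14 genes lower in Th17 with a median of -0.23, against 9 and -0.38 in Th1. Tspan32 also fell more in Th1, at -4.32 against -1.42 (1.21e-05), while Trp73 rose in Th1 and was at -0.31 in Th17 (0.00275). In the other direction Klrc2, an activating CD94 partner, fell by 0.37 ± 0.09 in Th1 and was at -1.94 in Th17 (2.31e-05), and Bcl2l11, the pro-apoptotic protein BIM, fell by 0.52 ± 0.10 and was at -1.63 (0.00721). Without Th17 KO library 3 the number of genes past this test was 38, and of the genes named here Iigp1 (0.182), Irgm1 (0.122) and Bcl2l11 (0.0599) no longer passed. Trp73 did not pass without Th17 WT library 1 (0.137), nor did Iigp1 (0.124) and Irgm1 (0.123), and Irgm1 also did not without each of 4 Th1 libraries (0.0599 to 0.0784).

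**Figure D5:**
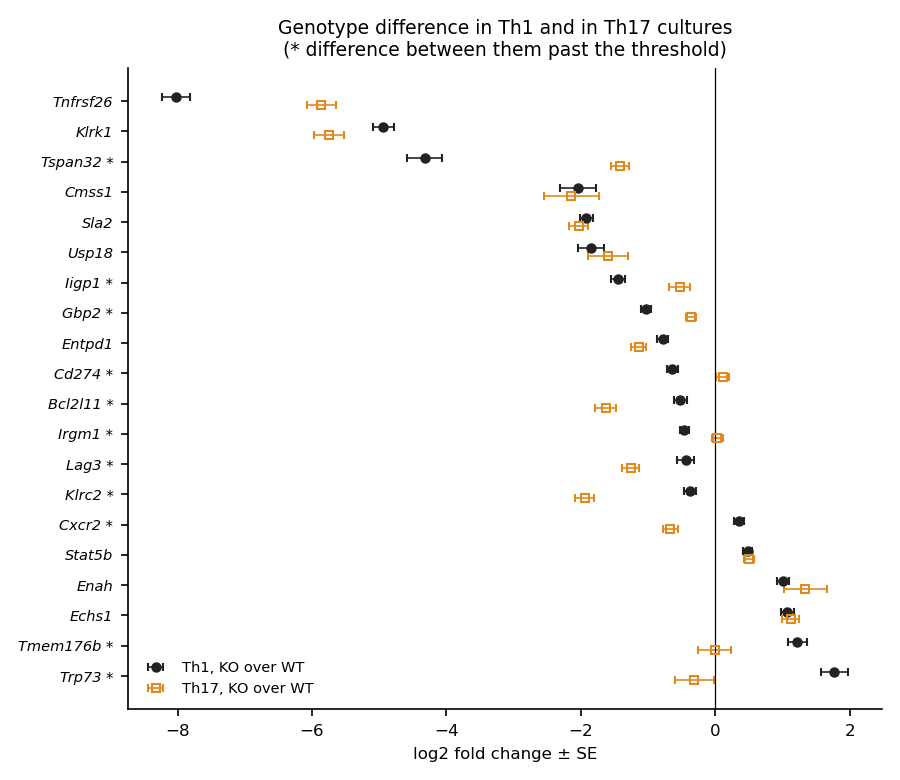
For 20 genes the log2 fold change of KO over WT is drawn (x axis) in Th1 (filled circles) and in Th17 (open squares). Error bars are the SE derived from the test's F statistic. They can understate counting error where a group has few counts, as for Tnfrsf26 and Tspan32 in Th1 KO. A star marks the 11 genes whose difference between the cultures passed the test, such as Tspan32 and Gbp2, which lie further from 0 in Th1.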

How the data were processed

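RNA of sorted cells was turned into cDNA with a poly-A primed low-input kit, tagged with Nextera XT and sequenced as paired ends, per the labels' protocols. The authors deposited 1 table of raw counts per gene for each library. The submitters' processing notes name featureCounts, TopHat2 and Bowtie2, and the build GRCm38 (mm10). Versions, the annotation, strand setting and handling of multiply mapped reads are not given in the sources used here. Gene names and positions come from GENCODE on GRCm38, which matched 37693 of 39179 IDs (96.2%).

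Genes were kept with edgeR's filter over 4 groups, scaled by TMM and fitted with a robust quasi-likelihood model (edgeR 4.0.16, R 4.3.3) to all 12 libraries, so that the groups share an estimate of the spread. Th1 KO was tested against Th1 WT, and the Th17 minus Th1 difference of that contrast. Benjamini-Hochberg adjustment ran over 12189 genes with a threshold of 0.05. Libraries are numbered in accession order. On simulated data with 12121 genes and this comparison, 70.1%, 86.6% and 98.5% of genes changed by 1.5, 2 and 3 fold were recovered, with 4% false calls. The simulated counts followed the trend of the spread with level and not each gene's own spread. Changes were put only into genes above a low CPM limit. These rates may therefore not hold for the data. Alternatives were RLE scaling, DESeq2 1.42.0, limma-voom (limma 3.58.1), no low-count filter, a fit of the Th1 libraries, a block by library code, a fit without 3 shallow Th17 libraries, and each library left out.

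At this depth (9108203 to 12688637 counts per Th1 library) 3 counts are 0.236 to 0.329 CPM before TMM scaling. The 3 shallow Th17 libraries held 1647232 to 2731909 counts, of which 18.3% to 51.0% fell on 1 gene ID with no name used here. Replicates of a Th1 group differed by more than sampling noise (mean chi-square per gene 2.917 to 5.86), so none was counted as a copy. Th17 pairs with a shallow library gave 49.716 to 572.032, and that spread enters the shared estimate.

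Genes named are Klrk1, Hcst, Tyrobp, Thy1, Tbx21 and Ifng, the 12 highest and 12 lowest called genes with at least 5 CPM and no overlap, the 6 most abundant called genes per direction, and up to 4 called genes per list and direction. The text describes mainly those whose call held without any Th1 library. Further members and genes of chromosome 7 were named after their values were seen. Some genes that this rule picks are not reported here. The comparison, gene lists and motifs were chosen with earlier results of these data known.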

Additional observations from a re-analysis of the deposited data

Results flagged for a closer look

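Each gene below stood out because its genotype difference in the Th17 cultures and in the Th1 cultures differed by edgeR's quasi-likelihood test of that difference. Values are the Th17 log2 fold change minus the Th1 log2 fold change, with adjusted p-values over 12189 genes. Positive values mark genes whose fall was larger in Th1: Tspan32 at 2.90 (1.21e-05), Iigp1 at 0.92 (0.0251), the checkpoint ligand gene Cd274 at 0.74 (0.00262), Gbp2 at 0.68 (0.000259) and Irgm1 at 0.50 (0.0251). Negative values mark genes lower in KO relative to WT in Th17 than in Th1. Among them are Klrc2 at -1.57 (2.31e-05), the pro-apoptotic gene Bcl2l11 at -1.11 (0.00721) and the checkpoint receptor Lag3 at -0.82 (0.0341), which were lower in KO in both cultures. Cxcr2, a receptor for neutrophil-attracting chemokines, was at -1.02 (0.000107), since it was 0.35 higher in Th1 and -0.67 in Th17. Its rise in Th1 did not pass without Th1 WT library 2 (0.0514) or Th1 KO library 2 (0.0856). Trp73 at -2.09 (0.00275) and Tmem176b at -1.23 (0.0374) were higher in Th1 and did not pass in Th17.

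Of these, Tspan32, Klrc2, Gbp2, Cd274 and Cxcr2 passed under every alternative. Trp73 did not pass without Th17 WT library 1 (adjusted p = 0.137), and Bcl2l11 did not without Th17 KO library 3 (0.0599). Iigp1, Irgm1, Lag3 and Tmem176b each failed in 4 or more alternatives, with limma-voom giving 0.0893, 0.0644, 0.0705 and 0.125.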

How the results depend on the processing

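No named gene or count changed direction under any alternative, and 60 of 111 called named genes kept their call in all of them. Against 562 calls (206 higher, 356 lower), a fit of the Th1 libraries alone gave 922 (377 and 545), DESeq2 317 (106 and 211) and limma-voom 1071 (400 and 671), of which 535, 298 and 559 were among the 562. Leaving out 1 library gave 260 to 679 calls, 90 to 251 higher and 170 to 428 lower. RLE scaling, the filter and the shallow Th17 libraries moved these counts by less than 1.5 times. For the Th17 minus Th1 difference, 72 genes became 207 with no filter and 38 to 108 with 1 library left out. Library codes that differ by 2 were tried as a pairing. Deviations from the group means correlated at 0.136, 0.029 and 0.166 in the 3 Th1 pairs. Every library correlated best with its own partner, but 1 pair is under 0.1. The labels do not say which libraries share a culture, so whether the members of a pair do is not settled. With a replicate block by code, 1315 genes were called (498 higher, 817 lower) and 329 for the difference. Under that block Ifng and Tbx21 passed, with changes of -0.21 ± 0.05 and -0.42 ± 0.06 (adjusted p = 0.00934 and 2.85e-06), and both were lower in KO in each of the 3 pairs. Depth limits genes near 3 counts per library, and with 3 libraries a group small changes rest on single libraries.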

Other observations

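Some called genes outside the groups described above are given here as values, with edgeR's quasi-likelihood test. Socs3, an inhibitor of cytokine signalling through STAT3, fell from 71.8, 72.0 and 73.6 CPM in WT to 56.1, 56.1 and 46.4 CPM in KO (-0.46 ± 0.07, adjusted p = 0.000329). Kit, the stem cell factor receptor, fell from 7.47, 6.27 and 5.90 CPM to 2.36, 3.27 and 3.80 CPM (-1.04 ± 0.19, adjusted p = 0.00105). Tnfsf8, the ligand of CD30, rose from 5.30, 3.84 and 3.12 CPM to 7.94, 8.20 and 7.35 CPM (0.94 ± 0.18, adjusted p = 0.00323). Fgd2, an exchange factor for the small GTPase Cdc42, rose from 3.99, 5.88 and 4.02 CPM to 9.64, 10.7 and 9.21 CPM (1.10 ± 0.18, adjusted p = 0.000232). Procr, the endothelial protein C receptor, rose from 4.14, 2.51 and 1.94 CPM to 9.26, 5.21 and 7.43 CPM (1.33 ± 0.25, adjusted p = 0.00298). In each of these 5 genes the WT and KO libraries did not overlap, as in nearly all called genes. Each of the 5 kept its call without any Th1 library.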
